A study of Homo sapiens with 12 samples.

Results

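CD48, CD58, ICAM1, ICAM2, ICAM3 and SELPLG encode surface proteins through which leukocytes hold on to each other and to vessel walls. They were taken by gene symbol, 6 of the 60504 features in the table, and all 6 were found. Poly(A) RNA-seq covered 12 libraries of TKO, a derivative of KMS-11, a human line from multiple myeloma, the cancer of plasma cells. Every group, the control included, has the genotype KMS-11 WHSC1(+/-), where WHSC1 is an older name of NSD2, the histone H3 lysine 36 methyltransferase. The 4 groups carried a vector for NSD2 p.D1240A (D1240A), a vector for NSD2 p.F1295A (F1295A), a vector for NSD2 without substitution (WT), or no vector (TKO), with 3 biological replicates each. No empty-vector line was analysed, so the presence of a vector and that of its NSD2 cannot be told apart in comparisons with TKO. The labels name neither the promoter of the vector nor whether each line is a clone. Nothing in the labels says that replicates came from separate cultures, so p-values measure the spread between these libraries, which may be technical.

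CD48 is a GPI-anchored member of the SLAM family and the ligand of CD244 on NK cells. CD58, its relative, binds CD2 on T cells and NK cells and helps them to adhere to the cell they inspect. The ICAM proteins are immunoglobulin-like ligands of the integrin LFA-1, which is built from the chains ITGAL and ITGB2, and SELPLG encodes PSGL-1, the mucin through which leukocytes roll on P-selectin. Myeloma cells use such contacts with the stroma and vessels of the bone marrow, and CD48 and CD58 also bear on their recognition by NK and T cells.

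NSD2 mRNA was higher in the 3 vector lines than in TKO. It measured 242 to 259 FPKM (read fragments scaled to gene length and library size, then rescaled between libraries) in D1240A, 159 to 172 in F1295A, 188 to 195 in WT and 58.6 to 62.7 in TKO. The mutant lines thus differ from WT in NSD2 mRNA as well as in the substitution, D1240A upward (log2 change 0.39, adjusted p = 5.29e-05) and F1295A downward (-0.22, adjusted p = 0.0138), and the part of that dose in the results was not tested. Of 10 plasma cell markers, 6 were at 1 FPKM or more in every library (TNFRSF17, XBP1, IRF4, PRDM1, JCHAIN and MZB1), and 1, FCRL5, stayed under 0.5 FPKM throughout. SDC1, the usual surface marker of plasma cells, ranged from 0.129 to 4.29 FPKM, and CD38 from 0.160 to 1.20. The 5 endothelial markers were under 0.5 FPKM in every library, as were 4 of 5 markers each of T cells, NK cells, myeloid cells and fibroblasts. The exception among NK markers was NCR1, at 3.93 to 7.26 FPKM. Structural RNAs made up 63.7% of the deposited FPKM sum of D1240A replicate 2, against 1.91% to 3.01% in the other libraries, and its log2 scaling factor was -0.30, against -0.00 to 0.06. The depth is unknown, since FPKM carry no read numbers.

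Of the 6 genes, 5 passed the filter of 0.5 FPKM in 3 libraries, and ICAM3 did not. In WT against TKO, all 5 tested ligands fell, where 49.7% of all 14391 tested genes were called (limma, adjusted p under 0.05), 25.9% higher and 23.9% lower. In D1240A against TKO 4 of 5 fell, where 44.5% of tested genes were called, 23.3% higher and 21.2% lower. In F1295A against TKO 5 of 5 fell, where 45.7% were called, 23.9% higher and 21.8% lower. The median log2 change of the 5 was -0.45 in WT, -0.27 in D1240A and -0.37 in F1295A, beside -0.0050, 0.013 and -0.0012 over all tested genes. These 3 comparisons share their TKO libraries. The ligands were chosen with earlier results of these data known, so their counts and medians are a description and not a test. The summed level of the 10 plasma cell markers also differed between these groups, at 3822 to 4146 FPKM in D1240A, 4636 to 5045 in F1295A, 4680 to 4913 in WT and 2336 to 2549 in TKO. That sum is mostly JCHAIN, at 1605 to 4128 FPKM over the libraries, while the next highest marker, XBP1, read 254 to 433. The part of the summed level in the result was not tested.

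Between the lines with vectors the ligands did not move as a block. In D1240A against WT, 3 rose and 1 fell, where 19.2% of tested genes were called, 8.22% higher and 10.9% lower. In F1295A against WT, 1 rose and 1 fell, where 2.71% were called, 0.896% higher and 1.81% lower. In D1240A against F1295A, 2 rose and 0 fell, where 6.09% were called, 3% higher and 3.09% lower. That count was 0 on the values as deposited and 1 to 2 when each library in turn was left out. Without D1240A replicate 2 the rises of CD48, CD58 and ICAM1 in D1240A against WT were still called, and the fall of ICAM2 was not (adjusted p = 0.0544). Without rescaling, the calls over all genes shifted toward the lower side. They were 249 higher and 1359 lower in D1240A against WT in place of 1183 and 1573, and 17 and 72 in F1295A against WT in place of 129 and 261. In D1240A against TKO they were 1589 and 3807 in place of 3357 and 3047, so the lean went from the higher to the lower side. In bulk RNA, fewer cells with a transcript and less of it per cell cannot be told apart.

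**Figure D1:**
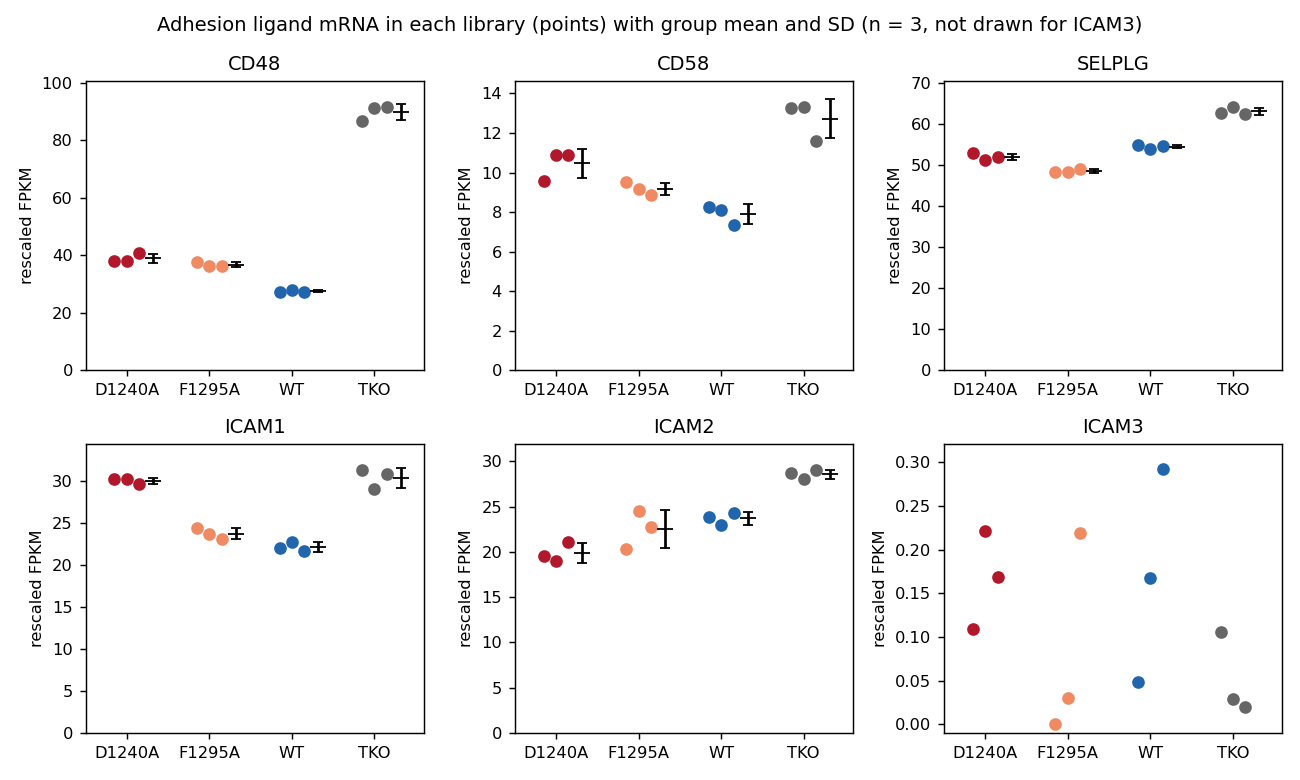
FPKM after rescaling (y axis, from 0, or from just under it for ICAM3) of the 6 ligand genes in each of the 12 libraries (points), by group (x axis), with the group mean and SD beside the points for the 5 tested genes. CD48 separates the vector lines (27.3 to 40.6 FPKM) from TKO (86.6 to 91.4), while ICAM1 in D1240A (29.7 to 30.3) lies within the range of TKO (29.1 to 31.4).

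The promoters of CD48, CD58 and ICAM1 differ in make-up, and whether this bears on the changes was not tested. RefSeq (GRCh38.p14) gave a window from 250 bases before to 50 bases after the start for 4 of the 6, and the windows of CD48 (chr1:160711773-160712072, minus strand), CD58 (chr1:116570977-116571276, minus strand) and ICAM1 (chr19:10270870-10271169, plus strand) are printed on the strand of the gene. Capitals mark matches, searched on both strands, to TTCNNNGAA (the core bound by STAT factors), GGAANTTCC (a kappaB-like core) and TATAAA, motifs chosen from what is known of ICAM1.
CD48: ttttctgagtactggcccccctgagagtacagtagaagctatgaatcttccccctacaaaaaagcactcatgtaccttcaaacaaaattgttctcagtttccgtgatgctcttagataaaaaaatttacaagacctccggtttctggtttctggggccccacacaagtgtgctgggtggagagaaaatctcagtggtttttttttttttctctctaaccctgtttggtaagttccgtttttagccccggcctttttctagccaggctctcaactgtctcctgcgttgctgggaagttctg
CD58: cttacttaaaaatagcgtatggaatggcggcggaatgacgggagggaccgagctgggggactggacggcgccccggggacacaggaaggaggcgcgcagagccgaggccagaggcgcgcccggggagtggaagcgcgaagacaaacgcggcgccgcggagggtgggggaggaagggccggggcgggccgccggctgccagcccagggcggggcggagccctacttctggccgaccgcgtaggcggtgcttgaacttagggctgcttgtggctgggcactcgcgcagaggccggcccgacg
ICAM1: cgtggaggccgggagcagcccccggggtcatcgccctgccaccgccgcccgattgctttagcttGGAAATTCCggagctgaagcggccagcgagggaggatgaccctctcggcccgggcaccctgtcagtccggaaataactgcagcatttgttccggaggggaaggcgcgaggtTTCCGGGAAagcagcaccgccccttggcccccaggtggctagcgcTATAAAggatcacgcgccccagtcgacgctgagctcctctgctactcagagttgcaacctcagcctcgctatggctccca
The CD48 window held 5 CpG and 44.7% G and C, the CD58 window 36 CpG and 71.7%, and the ICAM1 window 24 CpG and 64.7%, against medians of 14 CpG and 58.7% over 35116 such windows of the table. ICAM1 held all 3 motifs, starting at -186 (kappaB-like), -75 (STAT) and -30 (TATAAA) from the first transcribed base. The kappaB-like letters occur in 0.965% of the 35116 windows, the STAT core in 7.66% and TATAAA in 11.5%. These letters were not found in the windows of CD48 and CD58, nor in those of ICAM3, which are not printed. No window was at hand for ICAM2 and SELPLG. A match is a description of sequence, not a bound site.

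CD48 (ENSG00000117091, chromosome 1, 160678746 to 160711851, minus strand) had the largest log2 change of the 5 in each comparison except D1240A against F1295A, where it had the smallest. It measured 37.9, 38.0 and 40.6 FPKM in D1240A, 37.8, 36.3 and 36.1 in F1295A, 27.4, 28.0 and 27.3 in WT, and 86.6, 91.3 and 91.4 in TKO. The 3 vector lines lie far below TKO with no overlap, and WT lies below both mutants with no overlap. WT averaged 27.5 ± 0.375 FPKM and TKO 89.7 ± 2.76 (SD, n = 3 each), a log2 change of -1.69 (95% interval -1.77 to -1.61, adjusted p = 3.35e-11), or 0.311 of the TKO level. That change was the 84th from the lowest of 14391. CD48 fell in D1240A against TKO by 1.20 on the log2 scale (adjusted p = 5.06e-10) and in F1295A against TKO by 1.28 (adjusted p = 2.51e-10).

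Both mutant lines kept more CD48 mRNA than WT. D1240A averaged 38.8 ± 1.56 FPKM, a log2 change of 0.49 from WT (95% interval 0.41 to 0.57, adjusted p = 7.29e-06). F1295A averaged 36.7 ± 0.913 FPKM, a log2 change of 0.41 from WT (0.33 to 0.49, adjusted p = 0.00026), which was not called on the values as deposited (adjusted p = 0.0759). D1240A and F1295A differed by 0.08 (-0.00041 to 0.16, adjusted p = 0.223), which was not called and was -0.012 on the values as deposited. The order of levels was TKO, then D1240A and F1295A without a called difference, then WT.

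CD58 (ENSG00000116815, chromosome 1, 116514535 to 116571039, minus strand) followed the same order of means at a lower level. It measured 9.59, 10.9 and 10.9 FPKM in D1240A, 9.50, 9.16 and 8.85 in F1295A, 8.27, 8.13 and 7.34 in WT, and 13.3, 13.3 and 11.6 in TKO. No 2 groups overlapped. WT averaged 7.91 ± 0.502 FPKM and TKO 12.7 ± 0.967, a log2 change of -0.65 (95% interval -0.81 to -0.50, adjusted p = 1.26e-05). CD58 also fell in D1240A against TKO by 0.27 (adjusted p = 0.00886) and in F1295A against TKO by 0.45 (adjusted p = 0.000285).

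CD58 rose in D1240A against WT, with a log2 change of 0.38 (0.22 to 0.54, adjusted p = 0.00355). That call was lost on the values as deposited (0.27, adjusted p = 0.0761). Between F1295A and WT the log2 difference was 0.20 (0.05 to 0.36, adjusted p = 0.178), and between D1240A and F1295A 0.18 (0.02 to 0.33, adjusted p = 0.163). Neither was called, so F1295A is not separated by the test from the group above or below it in the order.

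ICAM1 (ENSG00000090339, chromosome 19, 10270835 to 10286615, plus strand), the inducible ligand of LFA-1, showed a different order. It measured 30.3, 30.3 and 29.7 FPKM in D1240A, 24.5, 23.8 and 23.1 in F1295A, 22.0, 22.8 and 21.7 in WT, and 31.4, 29.1 and 30.8 in TKO. D1240A overlaps TKO, and F1295A lies just above WT. WT averaged 22.2 ± 0.564 FPKM and TKO 30.4 ± 1.21, a log2 change of -0.45 (95% interval -0.53 to -0.36, adjusted p = 1.48e-06). F1295A against TKO fell by 0.35 (adjusted p = 1.37e-05).

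In D1240A against TKO the log2 difference of ICAM1 was -0.015 with a 95% interval of -0.10 to 0.07 (adjusted p = 0.775), where CD48, CD58, ICAM2 and SELPLG fell. D1240A averaged 30.1 ± 0.324 FPKM, above WT by 0.43 (0.35 to 0.51, adjusted p = 2.33e-05) and above F1295A, at 23.8 ± 0.656 FPKM, by 0.33 (0.25 to 0.42, adjusted p = 0.000691). The difference from F1295A was not called on the values as deposited (0.24, adjusted p = 0.198). F1295A and WT differed by 0.10 (0.01 to 0.18, adjusted p = 0.219), not called.

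ICAM2 (ENSG00000108622, chromosome 17, 64002594 to 64020634, minus strand), a constitutive ligand of the same integrin, was lowest in D1240A. It measured 19.5, 19.1 and 21.1 FPKM in D1240A, 20.3, 24.5 and 22.8 in F1295A, 23.8, 22.9 and 24.4 in WT, and 28.7, 28.0 and 29.1 in TKO. F1295A spreads over the ranges of D1240A and WT, and TKO lies above the 3 vector lines. WT averaged 23.7 ± 0.71 FPKM and TKO 28.6 ± 0.513, a log2 change of -0.27 (-0.40 to -0.13, adjusted p = 0.00358). D1240A against TKO fell by 0.51 (adjusted p = 3.49e-05) and F1295A against TKO by 0.34 (adjusted p = 0.000764).

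D1240A lay below WT for ICAM2, at 19.9 ± 1.08 FPKM and a log2 change of -0.25 (-0.38 to -0.11, adjusted p = 0.0162), the opposite direction to ICAM1, CD48 and CD58 in that comparison. This call was lost without D1240A replicate 2 (-0.22, adjusted p = 0.0544), without WT replicate 1 (-0.25, 0.0514) or without WT replicate 3 (-0.23, 0.0541). F1295A and WT differed by -0.07 (-0.21 to 0.06, adjusted p = 0.621), and D1240A and F1295A by -0.17 (-0.31 to -0.04, adjusted p = 0.121). The second of these was called without F1295A replicate 1 (-0.25, adjusted p = 0.0289).

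ICAM3 (ENSG00000076662, chromosome 19, 10333776 to 10339823, minus strand), a ligand of LFA-1 on resting leukocytes, was near 0. The libraries read 0.109, 0.222 and 0.169 FPKM in D1240A, 0, 0.0301 and 0.219 in F1295A, 0.0488, 0.168 and 0.292 in WT, and 0.105, 0.0288 and 0.0193 in TKO. The groups overlap, and no test was made at this level. An antisense gene that overlaps it, AC114271.1, read 2.15 to 3.53 FPKM as deposited, above ICAM3 itself.

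SELPLG (ENSG00000110876, chromosome 12, 108622277 to 108633959, minus strand) held a narrow range. It measured 52.9, 51.3 and 52.1 FPKM in D1240A, 48.5, 48.3 and 49.2 in F1295A, 54.9, 54.1 and 54.6 in WT, and 62.7, 64.1 and 62.6 in TKO. No 2 groups overlap, and F1295A is the lowest. WT averaged 54.6 ± 0.427 FPKM and TKO 63.1 ± 0.866, a log2 change of -0.21 (95% interval -0.26 to -0.15, adjusted p = 2.9e-05). D1240A against TKO fell by 0.27 (adjusted p = 3.87e-06) and F1295A against TKO by 0.37 (adjusted p = 2.67e-07).

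F1295A lay below WT for SELPLG, at 48.6 ± 0.475 FPKM and a log2 change of -0.16 (-0.22 to -0.11, adjusted p = 0.00651), where CD48 rose. That call was lost on the values as deposited (-0.19, adjusted p = 0.486). D1240A averaged 52.1 ± 0.76 FPKM and differed from WT by -0.07 (-0.12 to -0.01, adjusted p = 0.0934), not called. It was above F1295A by 0.10 (0.04 to 0.15, adjusted p = 0.0441), a call lost when any 1 of the 12 libraries was left out (adjusted p = 0.0609 to 0.132) and with library weights (0.0502).

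**Figure D2:**
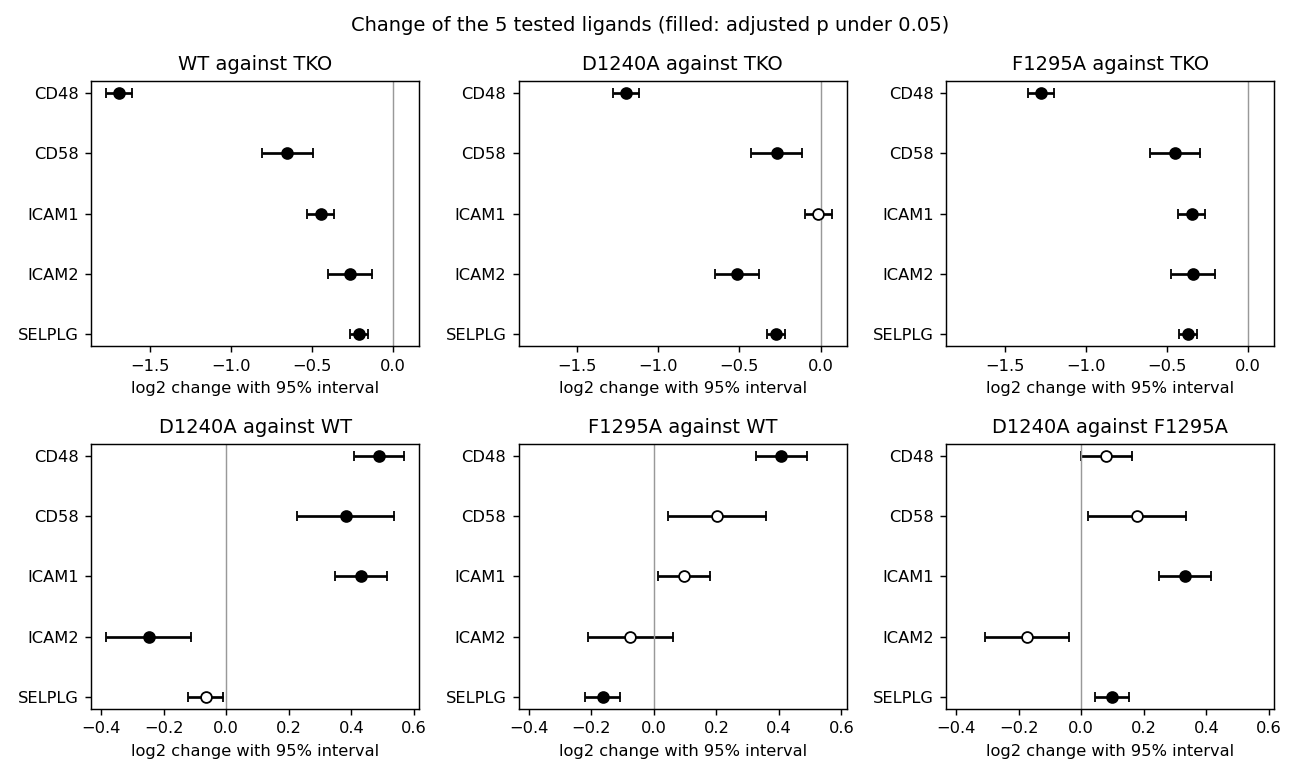
Log2 change with its 95% interval (x axis) of the 5 tested ligands in each of the 6 comparisons, first-named group minus second. Filled points are called at an adjusted p under 0.05. CD48 is at -1.69 in WT against TKO, and in D1240A against WT ICAM2 (-0.25) lies on the other side of 0 from CD48 (0.49), CD58 (0.38) and ICAM1 (0.43).

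The changes altered which ligand was most abundant. FPKM are per length, so levels can be compared between genes. In TKO the order of mean levels was CD48, SELPLG, ICAM1, ICAM2 and CD58, with CD48 above 91.6% of tested genes. In WT it was SELPLG, CD48, ICAM2, ICAM1 and CD58, with CD48 above 74.4% of tested genes. The means of ICAM1 and ICAM2 in WT, 22.2 and 23.7 FPKM, lie near each other, and their ranges (21.7 to 22.8 and 22.9 to 24.4) adjoin without overlap.

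Ratios of 2 ligands within a library do not depend on rescaling. CD48 over SELPLG was 0.717, 0.740 and 0.780 in D1240A, 0.779, 0.751 and 0.734 in F1295A, 0.498, 0.517 and 0.499 in WT, and 1.38, 1.42 and 1.46 in TKO. CD48 thus exceeded SELPLG in the 3 TKO libraries and fell short of it in the 9 others, and D1240A and F1295A overlap. ICAM1 over ICAM2 was 1.55, 1.59 and 1.41 in D1240A, 1.20, 0.969 and 1.02 in F1295A, 0.925, 0.995 and 0.893 in WT, and 1.09, 1.04 and 1.06 in TKO. D1240A stands above the other 3 groups without overlap, and its replicate 2, the library rich in structural RNA, reads 1.59 here and 0.740, between the other D1240A values, in the first ratio. CD58 over SELPLG was 0.181, 0.212 and 0.209 in D1240A, 0.196, 0.190 and 0.180 in F1295A, 0.151, 0.150 and 0.134 in WT, and 0.212, 0.207 and 0.185 in TKO. In this ratio WT lies below the other 3 groups, which overlap each other. The ratios are given as values and were not tested.

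**Figure D3:**
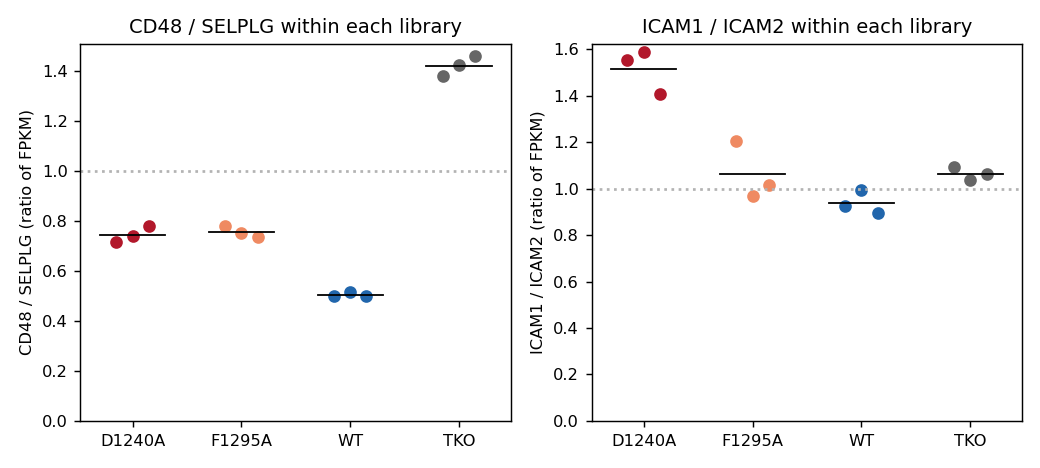
Ratio of deposited FPKM (y axis, from 0) of CD48 to SELPLG and of ICAM1 to ICAM2 in each library (points), with the group mean (line) and a dotted line at 1. CD48 over SELPLG is above 1 in TKO (1.38 to 1.46) and below 1 in the vector lines (0.498 to 0.780), and ICAM1 over ICAM2 is highest in D1240A (1.41 to 1.59).

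Across the 12 libraries, CD48 and CD58 varied most alike of the 10 pairs of tested ligands (Pearson r = 0.91 on log2 FPKM), and ICAM1 and ICAM2 least alike (r = 0.10). These values describe 12 libraries in 4 groups and mostly reflect the group means. By the same measure over 10302 genes with at least 2 FPKM, the genes most like CD48 were BEST3 (r = 0.998), SH3BGRL (0.992) and DGKA (0.991). BEST3, of the bestrophin channel family, averaged 4.99 FPKM in D1240A, 4.29 in F1295A, 2.72 in WT and 17.9 in TKO. CD58 was most like CCSAP (0.990), RIPK1 (0.971) and BCL2L11 (0.968). ICAM1 was most like PGLYRP4 (0.980), the butyrophilin BTN2A2 (0.977) and CIITA (0.974), the master activator of MHC class II genes. CIITA averaged 65.1 FPKM in D1240A, 40.3 in F1295A, 32.3 in WT and 71.0 in TKO. Among the genes most like ICAM2 were MED10 (0.954) and DENND2D (0.954), and SELPLG was most like VOPP1 (0.982), PPP1R16B (0.981) and PIAS2 (0.973).

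Of the 10 tested genes nearest to CD48, 1 rose, 2 fell and 7 were not called in WT against TKO, with a median log2 change of 0.09. The share that fell is close to the 23.9% of all tested genes called lower. The nearest on either side were NCSTN, a subunit of gamma-secretase (-0.05, adjusted p = 0.361), and the SLAM family gene SLAMF7 (0.29, adjusted p = 0.144). LY9, another SLAM family gene, fell by 0.53 (adjusted p = 7.39e-06) to 13.1 FPKM in WT, against 19.1 in TKO.

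Around CD58, 4 of 10 genes rose and 3 fell in WT against TKO, where 25.9% of all tested genes were called higher and 23.9% lower. The same shares stand beside the counts around the other ligands below. IGSF3, 3360 bases away, averaged 1.11 FPKM in WT, against 0.227 in TKO, a log2 difference of 1.15. It is among the 4 counted as higher. Its mean in TKO was under the filter level, so this difference is given as a description.

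Around ICAM1, 2 of 10 genes rose and 3 fell. ICAM5, a neuronal member of the family 3366 bases away, fell by 0.82 (adjusted p = 0.000305) to 2.36 FPKM in WT, against 4.53 in TKO, and like ICAM1 it rose in D1240A against WT (0.53, adjusted p = 0.0166). The nearest gene on the other side was AC011511.3 (0.18, adjusted p = 0.804). Around ICAM2, 1 of 10 rose and 4 fell, among them PRR29, which overlaps it on the opposite strand and fell by 0.45 (adjusted p = 0.00477), and on the other side ERN1 rose by 0.68 (adjusted p = 1.9e-06). CD79B (0.186 FPKM in WT, against 1.83 in TKO) and PECAM1 (0.295, against 1.74) are also among the 4. Both were under the filter level on average in WT, so their falls are given as a description.

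Around ICAM3, 0 of 10 genes rose and 4 fell, and its nearest partners were AC114271.1 (-0.23, adjusted p = 0.0559) and the kinase gene TYK2 (-0.52, adjusted p = 2.17e-05). ZGLP1, FDX2, AC011511.4 and RAVER1 are counted around both ICAM1 and ICAM3, and ZGLP1 is a fall in each (-0.84, adjusted p = 0.0201). Around SELPLG, 1 rose and 5 fell. ISCU on one side was not called (-0.09, adjusted p = 0.12). AC007569.1, an antisense gene over SELPLG, fell by 1.16 (adjusted p = 0.00113) to 3.79 ± 1 FPKM in WT, against 9.14 ± 2.66 in TKO. Whether the counting used strand is not stated, so reads of SELPLG and AC007569.1, and of ICAM2 and PRR29, may not have been told apart.

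**Figure D4:**
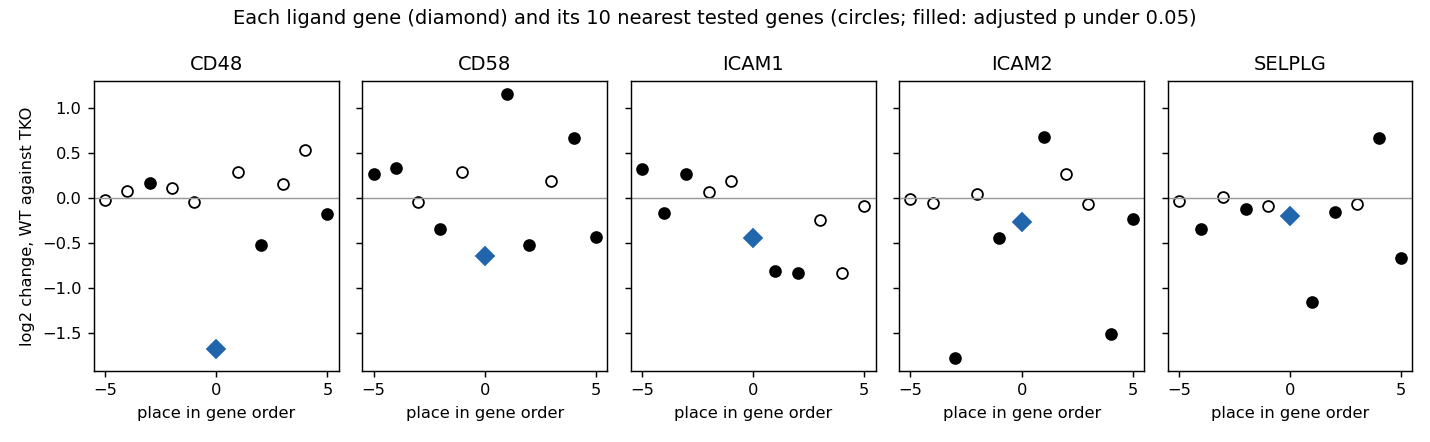
Log2 change in WT against TKO (y axis) of the 5 tested ligands (diamonds) and of the 10 nearest tested genes (circles, filled where the adjusted p is under 0.05) by place in the gene order (x axis). The CD48 diamond, at -1.69, lies below its 10 neighbours, whose median is 0.09.

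Of 11 genes for receptors that bind these ligands, 2 passed the filter and the highest library of the rest read 0.623 FPKM. ITGAL, the alpha chain of LFA-1, fell in WT to 10.9 FPKM, against 20.4 in TKO (log2 change -0.88, adjusted p = 5.65e-06), and also in D1240A (-0.97) and F1295A (-1.13) against TKO. Its partner chain ITGB2 read 0 to 0.369 FPKM over the 12 libraries. CD2 and CD244, the receptors of CD58 and CD48, read at most 0.0863 and 0.441 FPKM.

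Besides CD48 and CD58, 2 of 11 genes of the SLAM and CD2 families and their adaptors were tested. LY9 fell in WT, D1240A (-0.73, adjusted p = 6.45e-07) and F1295A (-0.61, adjusted p = 2.45e-06) against TKO. It was lower in D1240A than in WT (-0.20, adjusted p = 0.0216), where CD48 was higher. SLAMF7, a myeloma antigen, was higher in D1240A than in WT, at 1.80 against 0.701 FPKM (0.94, adjusted p = 0.00173), and than in TKO, at 0.486 FPKM (1.23, adjusted p = 5.39e-05).

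Of 15 genes that make PSGL-1 able to bind selectins, 5 rose and 6 fell in WT against TKO, 4 stayed uncalled, and the median was -0.14. Over all tested genes 25.9% were called higher and 23.9% lower. FUT7, the fucosyltransferase that completes the selectin-binding sugar, averaged 0.0388 FPKM in D1240A, 0.0467 in F1295A, 0.0554 in WT and 0.88 in TKO. It is among the 6 counted as lower but passed the filter through TKO alone, where it is high, so its levels are given as a description. FUT4, the other fucosyltransferase of the list, named after its values were seen, read 1.82 to 2.29 FPKM over the libraries and was not called in WT against TKO. The tyrosine sulfotransferases TPST1 (-0.31, adjusted p = 6.98e-06) and TPST2 (-0.57, adjusted p = 7.94e-06) fell, as did C1GALT1C1 (-0.62, adjusted p = 8.55e-07), the chaperone of the core O-glycan enzyme C1GALT1. C1GALT1 itself (0.37, adjusted p = 7.17e-07) and GALNT1, which starts O-glycans (0.83, adjusted p = 6.12e-07), rose. In D1240A against WT, 0 rose and 4 fell, among them GALNT1 (-0.35, adjusted p = 0.00296) and the fucose transporter SLC35C1 (-0.29, adjusted p = 0.00318). There, 8.22% of all tested genes were called higher and 10.9% lower. In F1295A against WT 0 of the 15 were called, where 2.71% of all tested genes were.

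**Figure D5:**
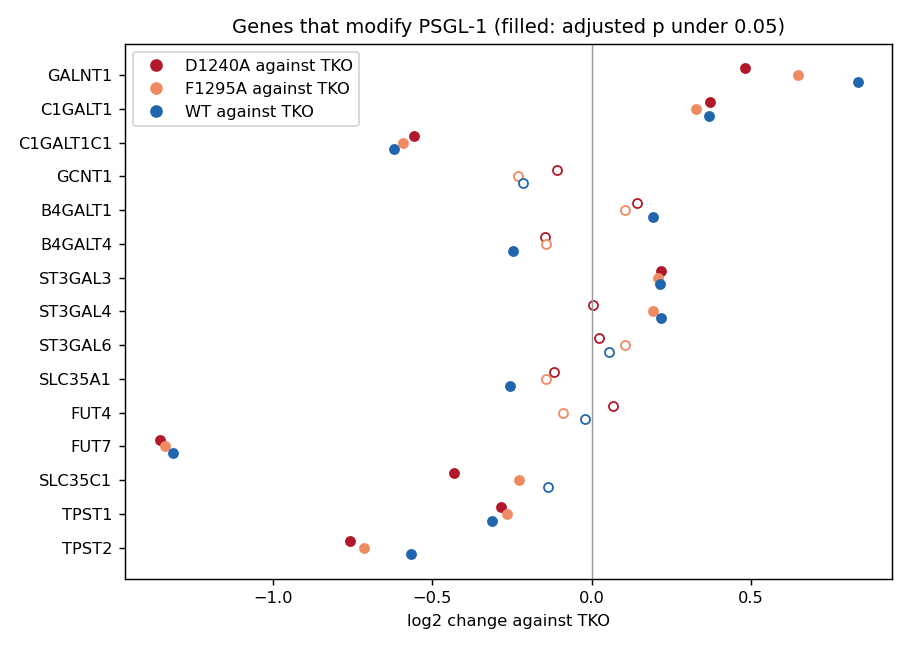
Log2 change against TKO (x axis) of 15 genes that modify PSGL-1 in D1240A, F1295A and WT, which share their TKO libraries. Filled points are called at an adjusted p under 0.05. In WT, TPST1 (-0.31) and TPST2 (-0.57) lie below 0 and GALNT1 (0.83) above it, and FUT7, at -1.31, passed the filter on low values through TKO alone.

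Of 8 tested ligands read by NK cells, 2 rose and 1 fell in WT against TKO, with a median of -0.04. For each count of that comparison given here, the shares over all tested genes were 25.9% higher and 23.9% lower. ULBP1, a ligand of the receptor NKG2D, rose to 2.20 FPKM in WT, against 0.55 in TKO (1.37, adjusted p = 2.07e-07), while HLA-E fell (-0.21, adjusted p = 3.94e-05). HLA-E rose in D1240A against WT (0.36, adjusted p = 6.77e-06) and in F1295A against WT (0.20, adjusted p = 0.00299). Of 8 tested proteins held by the same GPI anchor as CD48, 3 rose and 3 fell in WT against TKO. The complement regulator CD55 rose to 21.9 FPKM in WT, against 10.5 in TKO (1.02, adjusted p = 5.81e-08), and BST2 fell (-0.45, adjusted p = 3.4e-07). Of 28 genes of GPI anchor synthesis, 6 rose and 8 fell, among them PIGX (-0.51, adjusted p = 2e-06) and DPM3 (-0.93, adjusted p = 4.89e-06).

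Of 12 other tested adhesion molecules of blood cells and vessels, 1 rose and 3 fell in WT against TKO. Beside this count and that of the linkers below, 25.9% of all tested genes were called higher and 23.9% lower. PECAM1 is among the 3 counted as lower but averaged 0.295 FPKM in WT, under the filter level, against 1.74 in TKO. Its levels are thus given as a description. CD47, the "do not eat me" signal read by macrophages, fell to 41.9 FPKM in WT, against 57.9 in TKO (-0.46, adjusted p = 2.85e-07), and JAM3, a junctional adhesion molecule, rose (0.71, adjusted p = 0.000256). ALCAM, a ligand of CD6, was higher in D1240A than in WT (0.66, adjusted p = 0.000123) and than in F1295A (0.64, adjusted p = 0.00066). Of 10 tested linkers of ICAM and PSGL-1 tails, 2 rose and 2 fell in WT against TKO. Moesin, MSN, which ties these tails to actin, fell to 181 FPKM in WT, against 289.8 in TKO (-0.67, adjusted p = 1.57e-08), and ezrin, EZR, fell by 0.13 (adjusted p = 0.0024). In the other direction, ANK3 averaged 43.2 FPKM in WT, against 36.1 in TKO.

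Of 19 tested factors known to regulate these or other immune ligand genes, 5 rose and 9 fell in WT against TKO. Over all tested genes, 25.9% were called higher and 23.9% lower in that comparison. NFKB2, a subunit of the non-canonical NF-kB pathway, rose (0.47, adjusted p = 7.07e-08), and CIITA (-1.12, adjusted p = 4.66e-09), RUNX3 (-0.64, adjusted p = 1.92e-08), EZH2 (-0.49, adjusted p = 7.43e-08) and IRF1 (-0.66, adjusted p = 2.94e-07) fell. In D1240A against WT, 8 of the 19 rose and 1 fell, where 8.22% of all tested genes were called higher and 10.9% lower. Among those that rose were CIITA (1.00, adjusted p = 4.11e-07), RUNX3 (0.38, adjusted p = 1.51e-05) and IRF1 (0.34, adjusted p = 0.000455), and IRF4 fell (-0.17, adjusted p = 0.0394). In F1295A against WT, CIITA rose (0.31, adjusted p = 0.00561) and IRF4 fell (-0.28, adjusted p = 0.0169). In D1240A against F1295A, 6 rose and 0 fell, CIITA (0.69, adjusted p = 3.61e-05) and RUNX3 (0.28, adjusted p = 0.00066) among them. There, 3% of all tested genes were called higher and 3.09% lower.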

How the data were processed

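Polyadenylated RNA was measured in 12 libraries, 3 in each of 4 groups. Per the submitters' processing notes, reads were handled with Trimmomatic 0.36, FastQC 0.11.4, STAR 2.7.9a and RSEM 1.3.1 on GRCh38, with DESeq2 also named. The values the authors deposited are FPKM. Their annotation release and strand setting are not stated. Positions and neighbours come from GENCODE release 29, promoters from RefSeq.

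From these FPKM, 7089 structural RNA features were left out. Scaling factors were trimmed means (30% off each side) of log2 ratios against the average library, over genes averaging 1 FPKM or more. The 14391 genes reaching 0.5 FPKM in 3 libraries entered a limma fit (version 3.58.1, R 4.3.3) of log2(FPKM + 0.5), all 12 libraries together, group as the factor, variance trend on. Fold changes are on that scale, which understates low genes. The threshold for a call was 0.05 on the Benjamini-Hochberg adjusted p, taken across the whole fit. Values are rescaled FPKM, mean ± SD. The steps were tested on simulated data. No 2 libraries were identical. Members and gene lists were chosen with earlier results of these data known. Named genes were the members, called list genes (up to the 4 with the smallest adjusted p per list and comparison, with untested receptors given as levels), the 3 most alike genes and the nearest neighbours, of which a few are not reported here. The promoter motifs and within-library ratios were chosen after the values were seen. Alternatives were other scalings, filters, pseudocounts, library weights, structural RNAs kept, a replicate block, the compared groups alone and each library left out. Figures used Python 3.11.15 with matplotlib 3.10.9.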

Additional observations from a re-analysis of the deposited data

How the results depend on the processing

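The falls in WT against TKO and in F1295A against TKO were called for the 5 tested ligands under all alternatives run, as were the 4 falls in D1240A against TKO. On the values as deposited, without rescaling, CD58 in D1240A against WT (0.27), CD48 (0.38) and SELPLG (-0.19) in F1295A against WT, and ICAM1 (0.24) and SELPLG (0.0061) in D1240A against F1295A lost their calls, and CD48 in D1240A against F1295A changed sign (-0.012). The number of ligands called was then 0 in F1295A against WT and 0 in D1240A against F1295A. That setting moved the median of all genes to -0.10 in D1240A against WT and -0.12 in D1240A against TKO, and the changes above are not corrected for it. SELPLG in D1240A against F1295A also lost its call with library weights (0.10), the replicate block (0.10) and only the compared groups in the fit (0.10), which left 1 ligand called in each. The cause was not tested.

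Leaving out 1 library at a time gave 0.088 to 0.11 for SELPLG in D1240A against F1295A, never called, -0.29 to -0.22 for ICAM2 in D1240A against WT, -0.25 to -0.11 for ICAM2 in D1240A against F1295A, and 1 to 2 ligands called in D1240A against F1295A. ICAM1 in D1240A against TKO, not called, ranged from -0.048 to 0.0059, with its sign changed without TKO replicate 1 (0.0059).

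Same-numbered replicates of different groups did not deviate together (correlations of -0.053 to 0.085 over 18 pairs, -0.11 to 0.08 over 36 pairs of unlike number), so the numbers were not taken to pair the libraries. With the replicate block, D1240A against F1295A gave 525 calls over all genes in place of 877, and no other call of a ligand changed than the one above. Counts over all genes moved by more than 1.5 times in D1240A against F1295A (63 as deposited, 102 with only the compared groups, 440 with no filter, and 310 to 419 without D1240A replicate 2 or 3 or F1295A replicate 2 or 3), in D1240A against WT (1608 as deposited and 1723 without WT replicate 1, in place of 2756) and in F1295A against WT (89 as deposited, 613 with library weights, and 149 to 256 without any 1 F1295A or WT library, in place of 390). The unknown depth leaves the counting error of low values, ICAM3 above all, without an interval.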
